A study of Mus musculus with 16 samples.

Results

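Ms4a14, Ms4a6d and 6 other genes of the Ms4a family were followed in cultured cells of the mouse coronal suture. The 8 genes, Ms4a4a, Ms4a4c, Ms4a6b, Ms4a6c, Ms4a6d, Ms4a7, Ms4a8a and Ms4a14, were taken by name from 22180 genes that had a probe set with a single gene symbol. Each was represented by 1 probe set. They were picked for the higher levels of Ms4a14 and Ms4a6d at 7 than at 3 days in culture, so changes with days are given as a description without a test.

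The family encodes membrane proteins that cross the membrane repeatedly, with both ends in the cytoplasm, and its genes lie in a cluster. Ms4a1 encodes CD20 of B cells and Ms4a2 the beta chain of the high-affinity IgE receptor of mast cells. Several of the remaining members are known from macrophages and monocytes, where they act at the surface beside immune receptors, as Ms4a4a does beside the fungal receptor dectin-1.

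RNA was measured on 16 whole-transcript Affymetrix arrays. Cells came from 2 litters of C57BL6 mice that mixed wild-type and Twist1+/- pups, where Twist1 encodes a transcription factor of the cranial sutures. Separating them by genotype and sex gave 4 cultures (wild-type female, wild-type male, Twist1+/- female and Twist1+/- male), grown in serum-containing DMEM. Each was sampled at 3 and 7 days without hormone (control) and with thyroxine, the thyroid hormone, at 1e-06 mol per litre. The 8 groups of genotype, medium and day therefore held 2 arrays each, 1 of cells from females and 1 of cells from males. Each genotype and sex was 1 pooled culture, so p-values measure the spread between these arrays and not between animals. The sources used here give neither the ages of the mice nor whether RNA of the 3 wells was combined.

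The labels call the cells coronal suture cells and name no sort for macrophages. Markers of both kinds of cell were present. All 12 macrophage genes passed the filter on dim probe sets, with a mean log2 level between 7.06 and 9.07 on the 16 arrays, and 11 of 12 suture mesenchyme genes were measured and passed, with means between 8.34 and 9.88. Of the listed genes of other types, 4 of 12 for resident or alternatively activated macrophages, 4 of 6 for monocytes and 5 of 9 for osteoclasts passed it. So did 3 of 5 dendritic cell, 3 of 5 endothelial, 2 of 6 B cell and 1 of 7 T cell genes. None of 6 neutrophil and none of 6 mast cell genes passed the filter. Over all genes 13453 of 22180 passed it, so counts near that share do not show that a cell type was present. The wild-type male culture stood apart before any comparison of the members. At 3 days its macrophage genes averaged 8.77, against 7.37 ± 0.26 (SD, n = 6 arrays) in the other 3 cultures, and its suture mesenchyme genes 8.49 against 9.68 ± 0.10. In RNA from mixed cells, fewer cells of a type and less RNA per cell cannot be told apart.

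Of the 8 members, 5 were bright enough to test, namely Ms4a14, Ms4a7, Ms4a6c, Ms4a6b and Ms4a6d, and 3 were not. The filter kept the 13453 genes whose mean log2 level over the 16 arrays was at least 3.905. Levels of different probe sets are not compared, because probe sets differ in how brightly they report the same amount of RNA.

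All 5 members above the filter were higher at 7 than at 3 days in each of the 8 comparisons of culture and medium. Such a consistent difference was seen in 6.08% of the tested genes, and since the members were picked on this contrast nothing is read from their share. On the log2 scale the mean difference between days was 1.65 for Ms4a6d, 1.55 for Ms4a14, 1.55 for Ms4a7, 1.39 for Ms4a6b and 1.32 for Ms4a6c, against a median of -0.02 over all tested genes. These values correspond to 3.15-fold for Ms4a6d, 2.93-fold for Ms4a14 and Ms4a7, 2.62-fold for Ms4a6b and 2.49-fold for Ms4a6c. Ranked by this mean difference among the tested genes, Ms4a6d stood at place 9, Ms4a14 and Ms4a7 shared place 17, Ms4a6b was at place 46 and Ms4a6c at place 58.

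**Figure D1:**
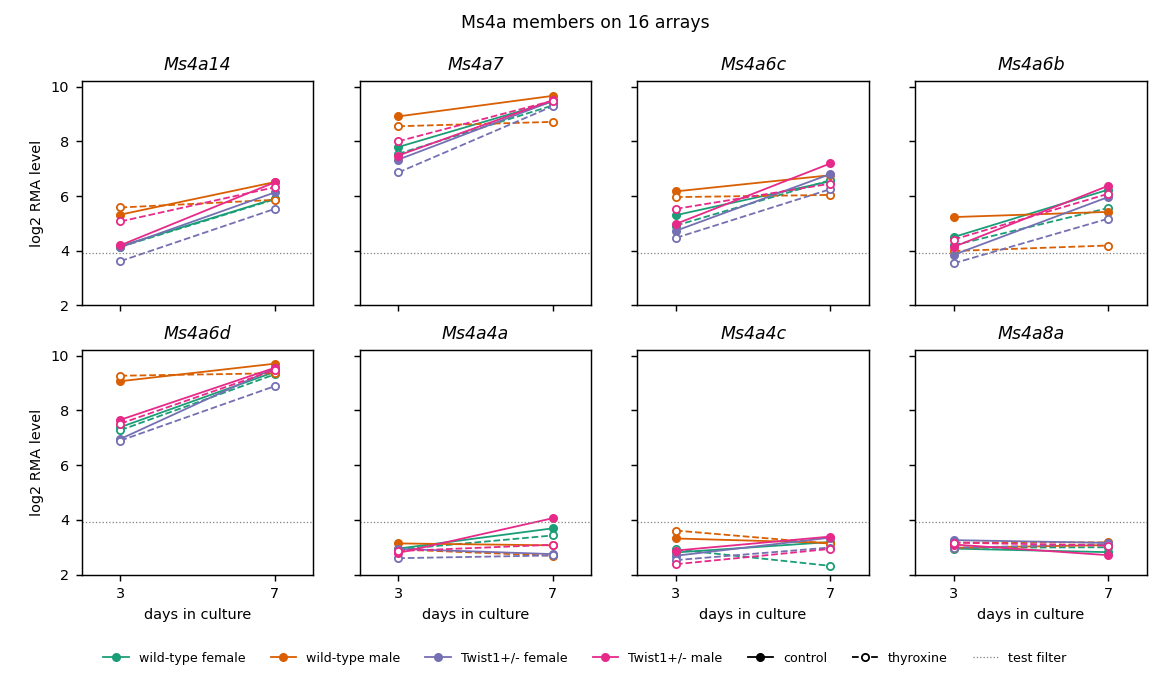
Log2 RMA level of each of the 8 members (vertical axis) at 3 and 7 days (horizontal axis), with 1 line for each culture and medium. The upper 4 panels and Ms4a6d show lines that climb with days, shallowest in the wild-type male culture, while Ms4a4a, Ms4a4c and Ms4a8a lie almost wholly under the dotted filter at 3.905.

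Ms4a6d, known from macrophages, was measured in 3-day control cultures at 7.39 (wild-type female), 9.07 (wild-type male), 6.96 (Twist1+/- female) and 7.66 (Twist1+/- male). At 7 days the same cultures read 9.41, 9.71, 9.55 and 9.56. With thyroxine the values at 3 days were 7.28, 9.27, 6.90 and 7.52, and at 7 days 9.32, 9.36, 8.89 and 9.48. The wild-type male arrays at 3 days were already at the height of the 7-day arrays, and the 3-day and 7-day arrays overlapped for that reason. In the other 3 cultures the 6 arrays at 3 days lay between 6.90 and 7.66 and the 6 at 7 days between 8.89 and 9.56, without overlap.

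Ms4a14, a little studied member of the family, read 4.17, 5.32, 4.13 and 4.20 at 3 days in control medium, in the order wild-type female, wild-type male, Twist1+/- female and Twist1+/- male. At 7 days it read 5.90, 6.51, 6.13 and 6.50. In thyroxine medium the values in the same order were 4.14, 5.58, 3.62 and 5.07 at 3 days and 5.88, 5.86, 5.53 and 6.32 at 7 days. The highest 3-day array was again of the wild-type male culture (5.58) and lay just above the lowest 7-day array (5.53). Without that culture the 3-day values ended at 5.07 and the 7-day values began at 5.53.

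Ms4a7, whose RNA is typical of macrophages, ranged over the 8 arrays at 3 days from 6.86 to 8.91, with a median of 7.66, and over the 8 at 7 days from 8.71 to 9.66, with a median of 9.46. Its 6 arrays of the other 3 cultures at 7 days were close together at 9.42 ± 0.09 (SD), whereas at 3 days they were at 7.50 ± 0.39. Ms4a6c, known from monocytes, was at 4.99 ± 0.38 in those cultures at 3 days and at 6.64 ± 0.33 at 7 days, and over all arrays its 3-day values reached 6.17 and its 7-day values began at 6.04. Ms4a6b, which is known from T cells as well as macrophages, was at 4.11 ± 0.36 and 5.89 ± 0.45, with 3-day values up to 5.23 and 7-day values from 4.19. None of the 5 members separated all 8 arrays at 7 days from all 8 at 3 days, which 0.974% of tested genes did. Without the wild-type male culture all 5 did so, as did 7.65% of tested genes.

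The difference between days was smaller in the wild-type male culture than in each of the other cultures for every member above the filter, on the mean of both media. For Ms4a6d it was 2.08 ± 0.25 (SD, n = 6 comparisons of culture and medium) in the other 3 cultures and 0.64 and 0.09 in the wild-type male culture in control and thyroxine medium. For Ms4a14 it was 1.82 ± 0.35 against 1.19 and 0.28. For Ms4a6b it was 1.79 ± 0.32 in the others against 0.19 and 0.20, the smallest mean of the 5 members in wild-type male cells. The wild-type male culture is a single culture, so these differences have no replicate and were not tested.

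The gap between wild-type male cells and the other cultures was larger at 3 than at 7 days for every member above the filter but Ms4a6b. At 3 days the mean of the wild-type male arrays exceeded that of the other 6 arrays by 1.89 for Ms4a6d, 1.23 for Ms4a14, 1.23 for Ms4a7, 1.08 for Ms4a6c and 0.50 for Ms4a6b. At 7 days the same difference was 0.17 for Ms4a6d, 0.14 for Ms4a14, -0.23 for Ms4a7 and -0.24 for Ms4a6c. For Ms4a6b it was -1.09. The 3-day excess of Ms4a6b came from the control array (5.23), since the thyroxine array (3.99) was below the mean of the other cultures (4.11).

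Most genes of the macrophage list moved with the members. Of the 12 macrophage genes, 8 were higher at 7 days in 8 of 8 comparisons, as were 6.08% of tested genes. Over all 12 the median difference was 1.06. Their mean level was higher by 1.42 ± 0.19 in the other 3 cultures and by 0.16 on average in wild-type males. Cd68, a lysosomal protein of macrophages, was higher by 1.54 on average and Trem2, a receptor of macrophages and microglia, by 1.49. The part of the macrophage markers in the members' day differences was not tested. The resident or alternatively activated macrophage list gave 1 gene higher in 8 of 8 comparisons among 4 tested, Folr2 (0.63), with a median of 0.71. Mrc1 (1.405) and Stab1 (0.79) were higher in 7 of 8, and Arg1 was at -0.08. The monocyte list gave 1 among 4, Nr4a1 (0.47), with a median of 0.41. Its other tested genes were Cx3cr1 (1.25, higher in 7 of 8), Ly6c2 (0.36) and Plac8 (0.07). The osteoclast list gave no such gene among 5 tested and a median of -0.12, and suture mesenchyme none among 11 with a median of -0.02.

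To set the members against these markers, the mean of the 12 macrophage genes was subtracted from each member on each array. On this relative scale Ms4a6d was still higher at 7 than at 3 days in 8 of 8 comparisons, by 0.55 ± 0.26 (SD). Ms4a14 was higher in 8 of 8 by 0.45 ± 0.29 and Ms4a7 in 8 of 8 by 0.45 ± 0.24. Ms4a6b was higher in 6 of 8 (0.29 ± 0.32) and Ms4a6c in 6 of 8 (0.22 ± 0.32). For Ms4a6b and Ms4a6c the mean excess was close to or below the spread of the comparisons. The members were picked on the day contrast, so an excess over the list mean is a description and nothing is read from it.

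On the relative scale the wild-type male thyroxine arrays of Ms4a6b and Ms4a6c lay below every array of the other cultures. Ms4a6b lay at -3.59 in wild-type male control arrays and at -4.69 in wild-type male thyroxine arrays, against -3.07 ± 0.34 (SD, n = 12 arrays, range -3.57 to -2.51) in the other cultures. Its 2 wild-type male thyroxine arrays were at -4.79 and -4.59. Ms4a6c was at -2.82 and -2.74 on those arrays, against -2.26 ± 0.25 (range -2.64 to -1.69) in the other cultures, and at -2.59 and -2.31 on the wild-type male control arrays. For Ms4a14, Ms4a7 and Ms4a6d the wild-type male mean differed from that of the others by -0.09, -0.27 and 0.25. All 4 arrays lay within the range of the other 12, which pools 3 and 7 days. Within each day this held for Ms4a14 but not for Ms4a6d or Ms4a7. At 3 days Ms4a6d was at 0.31 and 0.49 on the wild-type male arrays, above the other cultures, whose highest array was at 0.18. At 7 days Ms4a7 was at -0.07 on the wild-type male thyroxine array, below the other cultures, whose lowest array was at 0.53. The mean of 10 tested interferon-induced genes was also lower in wild-type male cells, by values of -1.49 at 3 days and -1.31 at 7 days, and its part in the level of Ms4a6b was not tested.

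**Figure D2:**
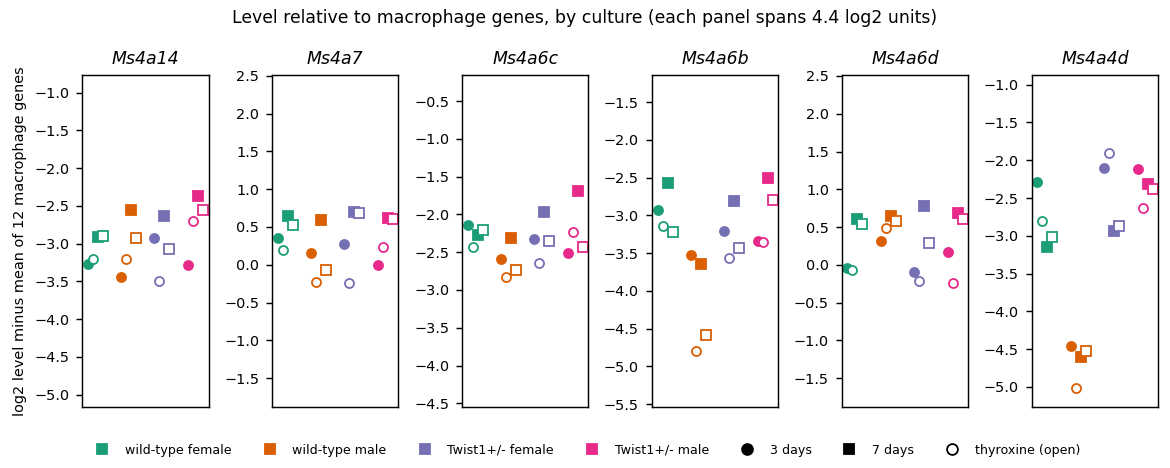
Log2 level of 5 members and of the neighbouring gene Ms4a4d minus the mean of 12 macrophage genes (vertical axis), for each array, grouped by culture along the horizontal axis. All 4 wild-type male points of Ms4a4d, 3 of 4 of Ms4a6b and the 2 thyroxine ones of Ms4a6c lie below the other cultures. The wild-type male points of Ms4a14, Ms4a7 and Ms4a6d lie within the range of the other cultures when 3 and 7 days are pooled. Within a day, those of Ms4a6d at 3 days lie above it and the thyroxine one of Ms4a7 at 7 days below it.

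The 3 members under the filter were near the bottom of the scale. Ms4a4a, which partners dectin-1 in macrophages, exceeded 3.905 on 1 array, the Twist1+/- male control array at 7 days, which read 4.06 after 2.79 at 3 days. Over the 8 comparisons it was higher at 7 days in 5, with a mean difference of 0.30. Ms4a4c, an interferon-responsive gene of monocytes, lay between 2.32 and 3.61 and was higher at 7 days in 5 of 8 (0.17). Ms4a8a, known from alternatively activated macrophages, lay between 2.71 and 3.26 and was higher in 4 of 8 (-0.06). At such levels RMA compresses differences, so small changes of these 3 genes were not detectable.

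The cluster on chromosome 19 is described in the gene order of the RefSeq assembly GRCm38.p6. Ms4a14, Ms4a7, Ms4a4a, Ms4a4c, Ms4a4b, Ms4a6c, Gm8369, Ms4a6b, Ms4a4d and Ms4a6d follow each other. This stretch held 5 tested members and Ms4a4d (0.79), all higher at 7 days in 8 of 8 comparisons. Its ends, Ms4a14 and Ms4a6d, are the genes picked for their day difference. That the stretch holds the higher genes was therefore largely fixed by the choice, and nothing is read from it. The tested genes Ms4a10 (0.04, higher in 4 of 8) and Ms4a15 (-0.19, higher in 1 of 8) lie outside the stretch. The stretch also held genes under the filter, among them Ms4a4a, Ms4a4c and the T cell gene Ms4a4b, whose level was between 1.57 and 2.45. Ms4a5, next to Ms4a14 and outside the stretch, was under the filter and higher in 7 of 8 comparisons (0.30). Ms4a1 (CD20), between 1.95 and 2.49, and Ms4a2, between 2.24 and 3.26, were dim on all arrays. The nearest tested genes beyond the cluster, Ccdc86 and Mrpl16, had mean differences of -0.12 and 0.04.

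**Figure D3:**
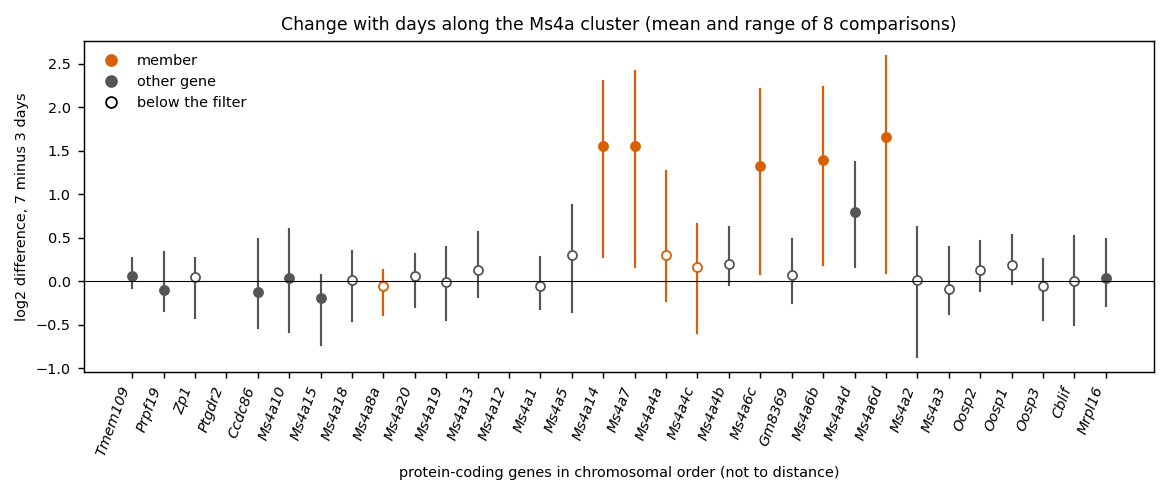
Log2 difference between 7 and 3 days (vertical axis; point for the mean, line for the range of 8 comparisons) of protein-coding genes in chromosomal order (horizontal axis, not to distance). The points above 0.5 fall between Ms4a14 and Ms4a6d, the genes picked for their rise with days. The dim genes of the same stretch lie between 0.07 and 0.30 and the dim neighbour Ms4a5 at 0.30.

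Promoter windows, from 250 bases before to 50 bases after a start site, came from RefSeq on GRCm38.p6 and were found for 7 of the 8 members, of which Ms4a7 had 2, while Ms4a6d was not in the table. They are shown for members that were higher at 7 days together. PU.1, the macrophage factor encoded by Spi1, was searched by its core GAGGAA and AP-1 by TGANTCA, both on either strand. The PU.1 core is present in 28.3% of the 32851 windows of this length and the AP-1 letters in 7.81%. The first 2 windows below lie on the minus strand, Ms4a14 at chr19:11314405-11314704 and Ms4a7 at chr19:11336097-11336396, with the matches in capitals.

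Ms4a14: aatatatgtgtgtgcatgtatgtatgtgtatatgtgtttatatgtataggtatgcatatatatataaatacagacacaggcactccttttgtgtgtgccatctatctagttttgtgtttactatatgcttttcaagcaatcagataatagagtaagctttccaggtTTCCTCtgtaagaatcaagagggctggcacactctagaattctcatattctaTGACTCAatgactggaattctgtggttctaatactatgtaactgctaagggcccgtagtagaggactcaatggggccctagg

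Ms4a7: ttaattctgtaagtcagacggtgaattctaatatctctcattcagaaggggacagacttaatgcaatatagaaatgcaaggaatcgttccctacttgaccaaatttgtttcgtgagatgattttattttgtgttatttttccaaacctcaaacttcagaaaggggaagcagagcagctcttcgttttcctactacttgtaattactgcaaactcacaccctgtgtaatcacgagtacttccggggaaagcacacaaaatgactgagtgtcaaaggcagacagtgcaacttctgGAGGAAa

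Ms4a14 held a PU.1 core on the opposite strand at -84 and an AP-1 match at -32 from the start site, and this Ms4a7 window a PU.1 core at 43. The second Ms4a7 window held an AP-1 match at -81. Ms4a4c, which stayed dim, held a PU.1 core at -61 and Ms4a8a an AP-1 match at -244, so matches were found in bright members and in dim ones. A match here is a string of letters and not evidence of binding.

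The windows of Ms4a6c (chr19:11469118-11469417) and Ms4a6b (chr19:11518309-11518608), both on the plus strand, held neither motif and no interferon response element (GAAA, any 2 bases and GAAA, in 3.44% of windows). They are shown because they share an identical run of 48 bases, in capitals, from -49 to -2 in Ms4a6c and from -118 to -71 in Ms4a6b. The longest run shared by any other pair of member windows was 10 bases.

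Ms4a6c: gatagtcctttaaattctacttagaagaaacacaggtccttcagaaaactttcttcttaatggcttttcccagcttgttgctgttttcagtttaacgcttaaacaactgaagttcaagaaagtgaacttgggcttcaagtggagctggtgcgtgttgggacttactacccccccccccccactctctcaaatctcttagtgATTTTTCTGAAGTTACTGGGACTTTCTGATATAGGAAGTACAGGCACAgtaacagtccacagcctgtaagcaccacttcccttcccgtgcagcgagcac

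Ms4a6b: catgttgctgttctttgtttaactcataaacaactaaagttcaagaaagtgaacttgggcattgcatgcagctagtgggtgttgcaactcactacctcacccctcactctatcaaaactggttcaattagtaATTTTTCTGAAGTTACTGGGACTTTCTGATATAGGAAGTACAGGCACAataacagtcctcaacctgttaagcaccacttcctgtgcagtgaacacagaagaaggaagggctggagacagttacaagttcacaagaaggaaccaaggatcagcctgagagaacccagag

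The 2 genes did not keep the same profile across arrays. After each was centred on its own mean over the 16 arrays, their root mean square difference was 0.43 log2 units. Among 12364 candidates Ms4a6c was still at place 8 in closeness to Ms4a6b, while Ms4a6b was at place 249 for Ms4a6c. The 2 genes were furthest apart on the 2 wild-type male thyroxine arrays. At 3 days in that culture Ms4a6c read 6.17 in control and 5.96 in thyroxine medium, and Ms4a6b 5.23 and 3.99. The probe sequences were not used here, so how far each probe set also reports the related gene is unknown.

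By the same measure of likeness, the genes closest to Ms4a14 among 12364 candidates were the platelet-activating factor receptor gene Ptafr (0.22), the inhibitory receptor gene Pirb (0.22), the Fc receptor gene Fcgr2b (0.23), the nucleotide receptor gene P2ry6 (0.23) and Tlr7 (0.24), a sensor of single-stranded RNA. Closest to Ms4a6d were Cybb, a subunit of the phagocyte oxidase, Trem2, the complement receptor gene C3ar1, Cd84 and the protease gene Ctss, all at 0.18. These 10 genes share the arrays and a higher level at 7 days with the 2 members, and the values are a description over 16 arrays.

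Thyroxine was the treatment the study was built around. Each thyroxine array had a control array of the same culture and day, which gave 8 pairs. These are 4 cultures, each at 3 and 7 days, so an SE over pairs does not measure the spread between cultures. Ms4a6b was lower with thyroxine in 7 of 8 pairs. The pair differences were -0.30 at 3 days and -0.67 at 7 days (wild-type female), -1.24 and -1.23 (wild-type male), -0.31 and -0.79 (Twist1+/- female), and 0.27 and -0.29 (Twist1+/- male). Both wild-type male pairs lay far below the rest, and the only higher pair was the Twist1+/- male one at 3 days.

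In limma, fitted across the 13453 tested genes with the pair as a block, the mean thyroxine difference of Ms4a6b was -0.57 ± 0.12 (SE, 8 pairs), with an adjusted p of 0.179 after Benjamini-Hochberg correction. None of the 5 members passed an adjusted p of 0.05 in this comparison, in which 0.0966% of tested genes did. Ms4a6c differed by -0.28 ± 0.10 (limma adjusted p = 0.752), Ms4a7 by -0.23 ± 0.10 (0.786), Ms4a6d by -0.16 ± 0.07 (0.770) and Ms4a14 by -0.11 ± 0.13 (0.923). The unadjusted p was under 0.05 for 4 of the 5, all but Ms4a14, and for 825 of all tested genes. Without the wild-type male culture the difference of Ms4a6b was -0.38 ± 0.12 and that of Ms4a7 -0.12 ± 0.12.

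**Figure D4:**
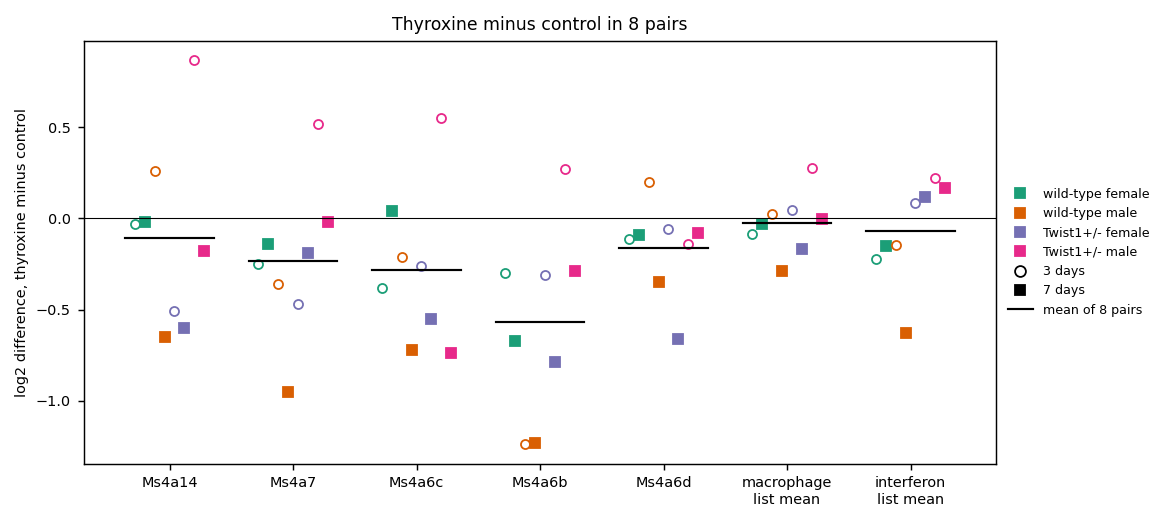
Log2 difference between thyroxine and control (vertical axis) in each of 8 pairs for 5 members and for the mean of 12 macrophage and 10 interferon-induced genes (horizontal axis), with a bar for the mean of the pairs. The Ms4a6b points reach down to -1.24 in the wild-type male pairs, while the macrophage mean stays between -0.29 and 0.28.

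Counted by direction, 3 of 5 members (Ms4a6b, Ms4a6d and Ms4a7) were lower with thyroxine in 7 of 8 pairs, against 3.71% of tested genes lower in 7 or more. None was lower in all 8, which 0.357% of tested genes were. The mean of the macrophage genes differed by -0.03 over the 8 pairs. Relative to that mean Ms4a6b was lower with thyroxine in 8 of 8 pairs, by -0.54 ± 0.41 (SD), although the Twist1+/- male pair at 3 days differed by only -0.0092. Ms4a7 was lower in 7 of 8 (-0.21 ± 0.30), Ms4a6d in 7 of 8 (-0.13 ± 0.22), Ms4a6c in 6 of 8 (-0.26 ± 0.31) and Ms4a14 in 4 of 8 (-0.08 ± 0.38). No share over all tested genes was computed on this relative scale. The shares above are of unadjusted levels and cannot be set against these counts.

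At 7 days the 4 pairs were lower with thyroxine for Ms4a6b (-0.74 ± 0.39, SD), Ms4a14 (-0.36 ± 0.31), Ms4a7 (-0.33 ± 0.42) and Ms4a6d (-0.30 ± 0.27), and 3 of 4 for Ms4a6c (-0.49 ± 0.37). Of all tested genes 7.92% were lower in these 4 pairs, and the mean of the macrophage genes was lower in 4 of 4, in 1 of them by only -0.0008. At 3 days the means were -0.40 ± 0.63 for Ms4a6b, 0.15 ± 0.58 for Ms4a14, -0.14 ± 0.45 for Ms4a7, -0.03 ± 0.16 for Ms4a6d and -0.08 ± 0.42 for Ms4a6c. Tested as a difference between days in limma, none of the 5 members passed, in a comparison in which 0.00743% of tested genes did. The values were -0.51 ± 0.26 (SE) for Ms4a14 and -0.42 ± 0.20 for Ms4a6c, both with an adjusted p of 0.898. The first ranged over the alternatives from -0.86 without the Twist1+/- female pair at 3 days to -0.17 without the Twist1+/- male pair of that day. The second ranged from -0.62 without the Twist1+/- female pair at 3 days to -0.045 without both Twist1+/- pairs at 7 days. Without the wild-type male culture they were -0.28 and -0.19. The macrophage genes moved in the same direction, with a mean of -0.12 at 7 days and 0.07 at 3 days and a lower difference in 11 of 12, and their part was not tested.

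Split by genotype, the thyroxine difference of Ms4a6b was -0.86 ± 0.17 (SE, 4 pairs) in wild-type cells and -0.28 ± 0.17 in Twist1+/- cells. Neither passed in limma, with adjusted p of 0.238 and 0.596, nor did the difference between the genotypes of 0.58 ± 0.24 (adjusted p = 0.484). The monocyte gene Cx3cr1 differed by -0.32 ± 0.10 in wild-type and by 0.22 ± 0.10 in Twist1+/- cells. Its difference between the genotypes was 0.54 ± 0.14 (limma adjusted p = 0.324). Of 4 tested monocyte genes 3 had a genotype difference above 0 and 1 below. Of the 5 members 0 passed in wild-type cells, where 0.0149% of tested genes did, 0 in Twist1+/- cells (0.201%) and 0 for the difference between genotypes (0.0595%). Without the wild-type male culture the genotype difference of Ms4a6b was 0.21, with the wild-type female culture alone standing for wild type.

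For Ms4a7 the thyroxine difference was -0.43 ± 0.14 in wild-type and -0.04 ± 0.14 in Twist1+/- cells (adjusted p = 0.566 for the difference between them in limma). Ms4a6d was lower in 4 of 4 Twist1+/- pairs, as were 8.10% of tested genes, by a limma value of -0.24 ± 0.09 (adjusted p = 0.434). Without the Twist1+/- female pair at 7 days the value was -0.09, the same as the -0.09 ± 0.09 in wild-type cells. In wild-type cells Ms4a6b and Ms4a7 were lower in 4 of 4 pairs, as were 6.33% of tested genes. The mean of the interferon-induced genes was lower with thyroxine in 4 of 4 wild-type pairs (-0.29 ± 0.23, SD) and higher in 4 of 4 Twist1+/- pairs (0.15 ± 0.06). These genes passed in neither direction, 0 of 10 in each genotype, and their part in the values of Ms4a6b was not tested.

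Between genotypes in control medium the fitted difference was below 0, that is lower in Twist1+/- cells, for 5 of 5 tested members and for 40.4% of tested genes, and no member passed the test. Over both media that of Ms4a6b was 0.025, and it was 0.0057 without the wild-type male control array at 3 days. In limma, with sex as a term and the culture as a random block, the difference was -0.51 ± 0.30 (SE) for Ms4a7 (adjusted p = 0.889), -0.46 ± 0.34 for Ms4a6d (0.899), -0.27 ± 0.27 for Ms4a6c (0.911), -0.27 ± 0.36 for Ms4a6b (0.938) and -0.24 ± 0.29 for Ms4a14 (0.929). In this comparison 0 of 5 members and 0% of tested genes passed by limma, while 639 genes had an unadjusted p under 0.05 and none of the members did. The 12 macrophage genes were all lower as well, with a median of -0.50. Without the wild-type male culture the differences were -0.37 for Ms4a7, -0.21 for Ms4a6d and -0.60 for Ms4a6b. That fit sets the wild-type female culture alone against the Twist1+/- cultures. A difference between genotypes cannot be told apart there from a trait of that culture.

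By group, the day difference of Ms4a6d in control medium was 2.25 ± 0.49 (SD of 2 cultures) in Twist1+/- and 1.33 ± 0.98 in wild-type cells, and that of Ms4a14 2.15 ± 0.21 and 1.46 ± 0.38. With thyroxine the values were 1.98 ± 0.02 and 1.07 ± 1.38 for Ms4a6d and 1.58 ± 0.47 and 1.01 ± 1.03 for Ms4a14. The wild-type values spread widely, with a high female and a low male culture. The wild-type female culture alone gave 2.02 and 2.04 for Ms4a6d and 1.73 and 1.74 for Ms4a14 in control and thyroxine medium, against 1.90 to 2.59 and 1.25 to 2.30 over the Twist1+/- cultures.

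Partners and receptors of the myeloid surface were higher at 7 days beside the members. Of 9 measured genes on that list, 8 were higher at 7 days in 8 of 8 comparisons, with a median of 1.09. So were 6.08% of tested genes and 8 of 12 in the macrophage list, whose median was 1.06. The lists were chosen with earlier results of these data known, so nothing is read from these counts. Among the partners were the sialic acid receptor gene Cd33 (1.76 ± 0.94, SD), Trem2 (1.49 ± 0.81), its adaptor Tyrobp (1.49 ± 0.82) and the adaptor Fcer1g (1.16 ± 0.74). Clec7a, which encodes dectin-1, was higher by 0.69 ± 0.25 at a low level, while Ms4a4a was dim. With thyroxine 0 of 9 passed in limma over all pairs, with a smallest adjusted p of 0.861.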

How the data were processed

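The authors deposited 1 log2 value for each probe set and array. Per the submitters' processing notes, it was computed by RMA (background correction, equal distributions, probe summary) using Affymetrix Expression Console. Version, genome build and annotation release: not given in the sources used here. Values ran from 0.57 to 14.05 and array medians from 3.73 to 3.86.

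Of 41345 probe sets, 23521 had 1 symbol in the platform annotation, 1814 several and 16010 none. The brightest one-symbol probe set stood for each of 22180 genes, and tests covered the 13453 whose mean reached 3.905 (percentile 40 over named probe sets). Tests used limma 3.58.1 in R 4.3.3 (lmFit, eBayes with trend), with Benjamini-Hochberg adjustment over all tested genes and a threshold of 0.05, after the script was tested on simulated data. Thyroxine effects were fitted with the 8 pairs of culture and day as blocks. The genotype fit had sex as a term and the culture as a random block (correlation 0.202).

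Replicate 1 is the female and 2 the male culture of a genotype, so control and thyroxine arrays of 1 number come from the same cells, per the labels. Across genes, their male minus female differences correlated at 0.771 and 0.721 in wild-type and 0.119 and 0.393 in Twist1+/- cells at 3 and 7 days.

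The members and all lists were chosen with earlier results of these data known. Named were the 8 members, other Ms4a genes, up to 4 genes a list with the smallest p and the 5 genes nearest in profile to Ms4a14 and Ms4a6d. Alternatives covered the filter, trend, block, centring, probe set means and each pair left out.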

Additional observations from a re-analysis of the deposited data

How the results depend on the processing

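None of the members passed the test in any comparison under any alternative run. The count of 5 members higher at 7 days in all comparisons was the same with median-centred arrays. Probe set means could not change it, since each member had 1 probe set, and leaving out a culture or medium cannot lower it. Without the replicate block 0 of 5 members passed, and 0 genes in any thyroxine comparison. Ms4a6b kept its direction with thyroxine over all pairs, between -0.69 and -0.38 over 16 settings (adjusted p from limma 0.064 to 1). Genes passing over all settings numbered 0 to 29 for all pairs (13 as reported), 0 to 9 in wild type (2), 0 to 232 in Twist1+/- (27), 0 to 202 for the genotype difference (8), 0 to 17 for the day difference (1) and 0 to 140 for genotype (0).

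Small differences turned sign, and the cause was not tested. Without the Twist1+/- pairs at 7 days the Twist1+/- thyroxine difference was 0.18 for Ms4a14, 0.14 for Ms4a6c and 0.025 for Ms4a7. Without the wild-type male culture the genotype difference was -0.08 for Ms4a14 and -0.08 for Ms4a6c. Over both media the genotype value of Ms4a6b was 0.025. Leaving out 1 pair at a time gave for Ms4a14 -0.28 to 0.065 over all pairs, -0.27 to 0.0475 in wild type, -0.45 to 0.24 in Twist1+/- and -0.34 to 0.35 for the genotype difference. For Ms4a7 it gave -0.29 to 0.21 in Twist1+/- and -0.43 to 0.0625 for the day difference, and for Ms4a6c -0.14 to 0.27 for the genotype difference. Leaving out 1 array gave -0.54 to 0.0057 for Ms4a6b between genotypes.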

Other observations

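Ms4a4d, a cluster gene next to Ms4a6b that is not among the 8 members, was higher at 7 days in 8 of 8 comparisons by 0.79 ± 0.44 (SD). Unlike Ms4a6d it was low in wild-type male cells, at 4.04 on average at 3 days and 4.36 at 7 days, against 5.06 ± 0.28 and 6.01 ± 0.41 in the other 6 arrays of each day. Relative to the macrophage genes it lay -2.11 away from the other cultures in wild-type male cells, and was higher at 7 days in 2 of 8 comparisons. Between genotypes in control medium it differed by 0.79 ± 0.33 (SE, limma adjusted p = 0.889).

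Tmem176b, a distant relative of the family, was higher at 7 days in 8 of 8 comparisons (0.48 ± 0.15, SD) and Tmem176a in 6 of 8 (0.36 ± 0.50). The genes closest in profile to Ms4a6b, looked up after its values were seen, were the chemokine gene Ccl12 (root mean square difference 0.33), the cholesterol transporter gene Abcg1 (0.38) and Sp100 (0.39). None of the other members was among its 5 closest genes, of which Ms4a6c stood at place 8.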
